A study of Mus musculus with 2 samples.

Results

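The cells described are 1183 short-term haematopoietic stem cell (ST-HSC) library cells that were rich in Hlf and Mecom RNA and low in the RNA of chosen cycle, granule, erythroid and lymphoid genes. They were chosen by their own counts among the 6648 kept cells of that library, of 9370 kept in the whole study. Per 10000 unique molecular identifiers (UMIs) of the cell, each had at least 15 UMIs of Hlf plus Mecom. Each also had under 2 summed over 7 mitotic genes (Mki67, Top2a, Cenpf, Kif11, Nusap1, Tpx2, Prc1), under 2 over the S phase genes Hells, Uhrf1 and Ung, and under 2 over the granule genes Mpo, Elane and Ctsg. Car1 was held under 10 per 10000 and Dntt at 0 UMIs. They made 17.8% of the kept ST-HSC cells (95% exact binomial interval 16.9 to 18.7). A group cut from per-cell sums is a range of cells and not a type. Levels are UMI counts summed over a group of cells and scaled to that group's total, as CPM.

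The study sorted bone marrow stem cells for droplet RNA sequencing from C57Bl6 mice that were wild type and, going by the series title, 8 weeks old. The ST-HSC gate asked for LSK cells (lineage negative, Sca-1 and Kit positive) without CD34 and with CD150 and CD48. The long-term (LT-HSC) gate asked for LSK cells with CD150 and without CD34, CD48 or Flk2. There was 1 library per gate, and how many mice were pooled into each is not stated, so no difference here has a replicate check and no p-value is given. All intervals cover counting error only.

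Hlf encodes a PAR bZIP transcription factor and Mecom (Evi1) a zinc finger factor, and both are needed for stem cells to be kept and to self-renew. Stem cells are mostly out of the cycle, and their early descendants divide more and begin to express lineage genes. Klf12 encodes a Krüppel-like repressor, Mamdc2 an extracellular MAM domain protein, and Ltb lymphotoxin beta, a membrane cytokine of the TNF family. On mm10, Hlf lies on the minus strand at chr11:90336536-90390895, Mecom on the minus strand at chr3:29951296-30548008 and Klf12 on the minus strand at chr14:99870632-100284679. Mamdc2 lies at chr19:23302609-23448442, minus strand, and Ltb at chr17:35194439-35196320, plus strand. The counts are per gene and do not separate exons from introns.

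The ST-HSC library held 7586 barcodes and 113480785 UMIs, and the LT-HSC library 2938 barcodes and 65158651 UMIs. The members had a median of 9035 UMIs and 3448 genes, against 15050 UMIs and 4519 genes in the 5465 other ST-HSC cells. Their median mitochondrial share was 3.63%, against 3.44% in those other cells. The libraries shared 8 barcodes, of which 1 belonged to a member. The gate was only partly seen in the RNA of the members. Slamf1, which encodes CD150, had 1.66 CPM, and Cd34, whose protein the gate excludes, had 257 CPM. Cd48, the marker that the gate requires, had 23.3 CPM and was 3.48-fold lower (3.09 to 3.93) than in the other cells of the library. Ly6a (Sca-1) and Kit were at 392 and 273 CPM. The gate is given here as the series states it. Protein was not analysed here, and whether RNA and surface protein differ or the gate was otherwise than stated was not tested.

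The Hlf and Mecom limit was met by 2720 ST-HSC cells, and all the other limits together by 1946. The members ran from 15 to 107 Hlf plus Mecom UMIs per 10000, with a median of 24.9, and 1177 of them had UMIs of both genes. The median over the other cells was 9.86. There was no gap at the limit: 190 cells at 12 to under 15 met every other limit and stayed outside, and 190 members lay at 15 to under 18. The limits on the mitotic, S phase and granule genes rest on very few UMIs, since 1 UMI is over 2 per 10000 in the 55 members below 5000 UMIs. Of the members, 558 had no UMI of those genes at all. When each cell's UMIs were split at random into 2 equal parts and the rule read the first, it chose 1134 cells. In the part it had not read, 82.9% of them again had 15 or more, against 32.1% of the other cells.

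**Figure D1:**
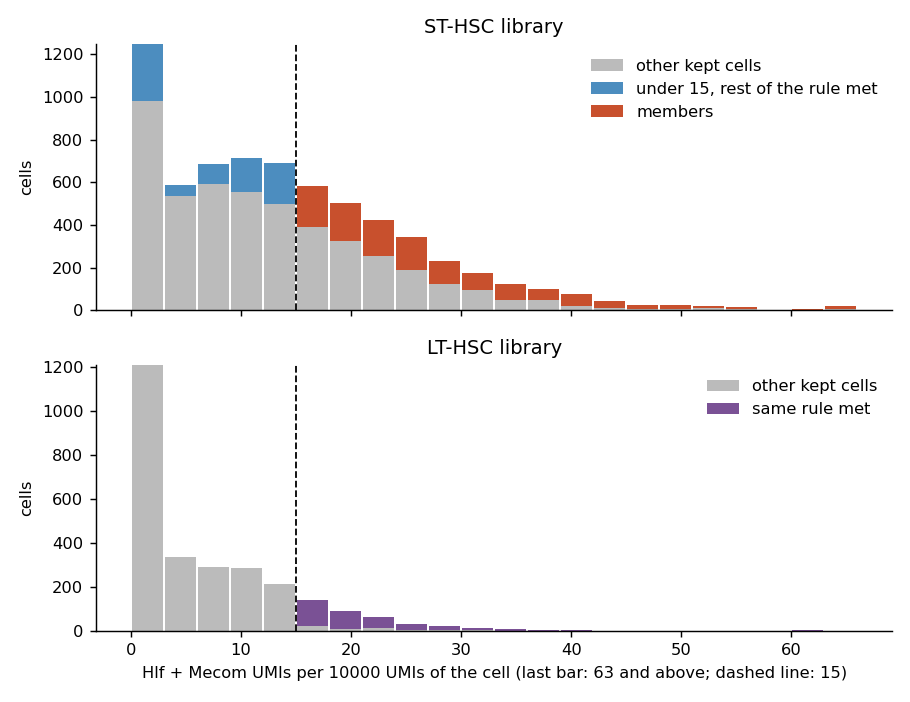
Number of kept cells (y axis) by Hlf plus Mecom UMIs per 10000 UMIs (x axis), for the ST-HSC library above and the LT-HSC library below, stacked by whether the rule was met. The 1183 members start at the dashed line at 15 and continue without a gap from the 763 cells that met all other limits below it.

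Klf12, Mamdc2 and Ltb, which the rule did not read, were all higher in the members than in the rest of the library. Klf12 was at 181 CPM in the members and 62.8 in the other cells, a ratio of 2.88 (2.74 to 3.02). Mamdc2 was at 80.1 and 22.3 CPM, a ratio of 3.58 (3.32 to 3.87). Ltb was at 318 and 99.7 CPM, a ratio of 3.19 (3.07 to 3.31). These RNAs were spread over many members: 816 had a Klf12 UMI, 445 a Mamdc2 UMI and 968 an Ltb UMI. With cells chosen on 1 part of the split UMIs and levels read from the other, the ratios were 2.76 for Klf12, 3.502 for Mamdc2 and 2.84 for Ltb. Hlf itself stood at 1095 and 384 CPM and Mecom at 1628 and 697 CPM, as the rule sets.

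The markers did not all mark the same contrast. Mamdc2 was lower in each step from the LT-HSC cells that met the same rule (105 CPM) to the members (80.1), the cycling Hlf- and Mecom-high cells (54.0) and the low Hlf and Mecom cells (32.8). Ltb was instead highest in the members, at 318 CPM, and was at 243 CPM in the low cells and 119 in the cycling ones. Counting intervals did not overlap between neighbours in either order. The Hlf- and Mecom-high cells with Dntt, at 48.4 CPM (42.5 to 55.0), could not be placed below the cycling ones for Mamdc2, and for Ltb the low cells, the Dntt-positive cells (228 CPM) and the LT-HSC cells (239.7 CPM) overlapped. After every cell was thinned to 5000 UMIs, Klf12 was seen in 52.4% of the members (49.4 to 55.3) and in 2.91% of 103 granule-gene-rich cells, which should lack it. Without thinning these shares were 69.0% and 9.71%, at median depths of 9035 and 30496 UMIs. Ltb was seen in 67.0% and 1.94% after thinning, and in 81.8% and 15.5% without it.

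**Figure D2:**
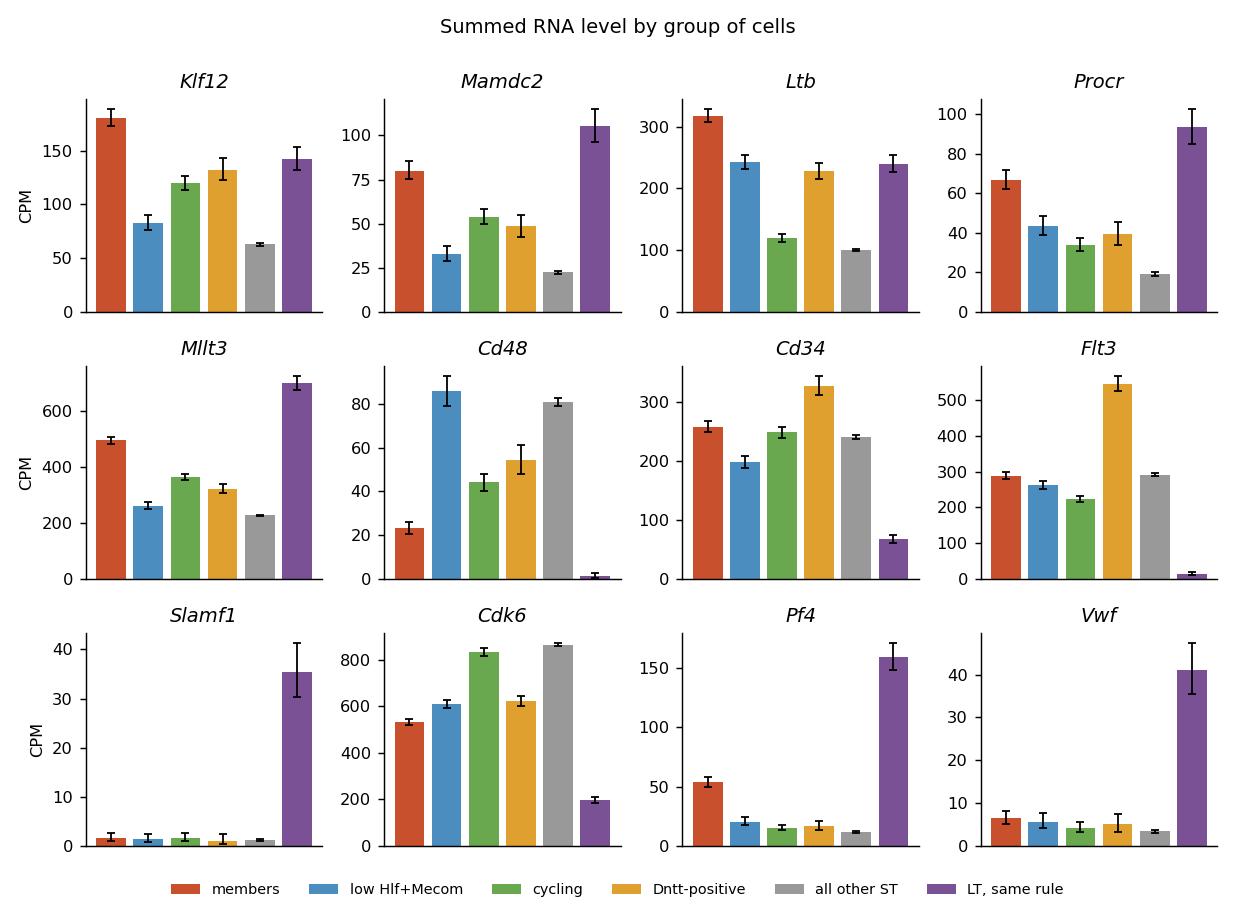
Summed RNA level in CPM (y axis, from 0) of 12 genes in 6 groups of cells, with 95% Poisson intervals that cover counting error only. Klf12 and Ltb are highest in the members, Cd48 is lower in them than in the other ST-HSC groups, and Slamf1 stands out only in the LT-HSC cells.

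Against the 5465 other ST-HSC cells, many stem cell genes were higher in the members and nearly all listed S phase and G2/M genes, which the rule selects against, were lower. A call needed a ratio of 1.5 or more in either direction, among genes with a mean of at least 5 CPM and at least 20 UMIs. Of 10648 genes measured, 1477 were higher, which is 13.9%, and 1196 were lower, which is 11.2%. These shares describe how the rule divides the library and test nothing. Over all genes the log2 ratio had a median of 0.098. With TMM library sizes all ratios shift by a log2 of -0.19, and the counts become 825 higher and 1874 lower, so the balance of the 2 directions is not settled.

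Transcription factors of stem cells were higher as a group. Of 26 measured, 18 were higher and 0 lower, with a median log2 ratio of 0.73. Under TMM scaling 11 were higher and 0 lower. Meis1, a homeobox cofactor of Hox proteins, was at 1211 CPM in the members and 628 in the other cells. Mllt3, a reader of acetylated histones that supports stem cell maintenance, was at 495 and 226 CPM. Prdm16, a paralogue of Mecom, was at 138 and 60.1 CPM, and Nkx2-3, a homeobox factor, at 147 and 58.5 CPM. Of 7 measured Hox A and B genes, 6 were higher, among them Hoxa9 at 163 and 99.5 CPM. Hoxb5 was nearly silent, at 1.58 CPM in the members.

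Surface genes of stem cells divided. Of 27 measured, 11 were higher and 2 lower, with Cd48 among the lower. Procr, the endothelial protein C receptor, was at 66.9 and 19.2 CPM, a ratio of 3.49 (3.21 to 3.79). Cd34 and Flt3 hardly differed, with ratios of 1.07 (1.03 to 1.11) and 0.991 (0.956 to 1.03). The members thus shared Flt3 RNA at 289 CPM with the rest of the library. Among cycle inhibitors and quiescence genes, 10 of 25 were higher and 2 lower. Cdkn1c, which encodes the inhibitor p57, was at 21.4 and 7.68 CPM, and Txnip, an arrestin-like growth inhibitor, at 348 and 153 CPM.

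S phase, G2/M and erythroid genes were lower as lists. Of 30 S phase genes 29 were lower and of 29 G2/M genes all 29 were lower, with median log2 ratios of -1.92 and -4.27. The rule read related genes in the same cells, so these counts follow from it. Cdk6, the G1 kinase whose level is low in dormant stem cells, was at 529.9 CPM in the members and 865 in the other cells, 1.63-fold lower (1.59 to 1.67). Of 18 cyclins and G1 kinases 8 were lower and 2 higher. Ccnd3, a D cyclin, was one of the higher, at 645 and 338 CPM. Of 22 erythroid genes 17 were lower and 2 higher, and the 2 higher were Hbb-bt and Nfe2. The rule limited Car1, an erythroid gene, in the same cells, but 0 cells were left out by that limit alone. Of 30 ribosome biogenesis genes 11 were lower, of 63 nuclear genes of oxidative phosphorylation 22 were lower, and 0 of either list were higher. TMM scaling raised these lower counts to 21 and 48. Of 14 megakaryocyte genes 7 were higher and 2 lower, of 22 immediate early genes 9 and 1, and of 20 lymphoid progenitor genes 5 and 4. Under TMM these became 4 and 2, 4 and 1, and 3 and 8, so the lymphoid list changed its balance with the scaling. None of 47 ribosomal protein genes and none of 13 mitochondrially encoded genes passed either limit, although 3 ribosomal protein genes were lower under TMM.

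The genes ranked highest over the other cells were Prg2 and Pf4, followed by Plekhg1, Il1rapl2 and Mill2. Pf4, the platelet chemokine, had a ratio of 4.56 (4.14 to 5.03) and was found in 304 members. Il1rapl2, a neuronal member of the interleukin 1 receptor family, was at 86.1 and 20.2 CPM, and Nbea, a membrane traffic scaffold, at 71.3 and 16.9 CPM. Mill2, an MHC class I-like protein, was at 73.9 and 17.3 CPM. Nr3c2, the mineralocorticoid receptor, Lhcgr, the gonadotropin receptor, and the scaffold Dlg2 had ratios of 4.17, 3.99 and 3.84. Prg2, an eosinophil granule protein, had a ratio of 7.49, but 351 of its 356 UMIs came from 1 member, and its log2 ratio was -4.92 under cycling limits of 1. Genes higher in the members spanned a median of 31.9 kb of the genome, all measured genes 25.1 kb and genes lower 15.8 kb. The nuclear RNA Malat1 was at 11656 CPM in the members and 6705 in the other cells. The part of transcript length or nuclear RNA in these ratios was not tested.

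**Figure D3:**
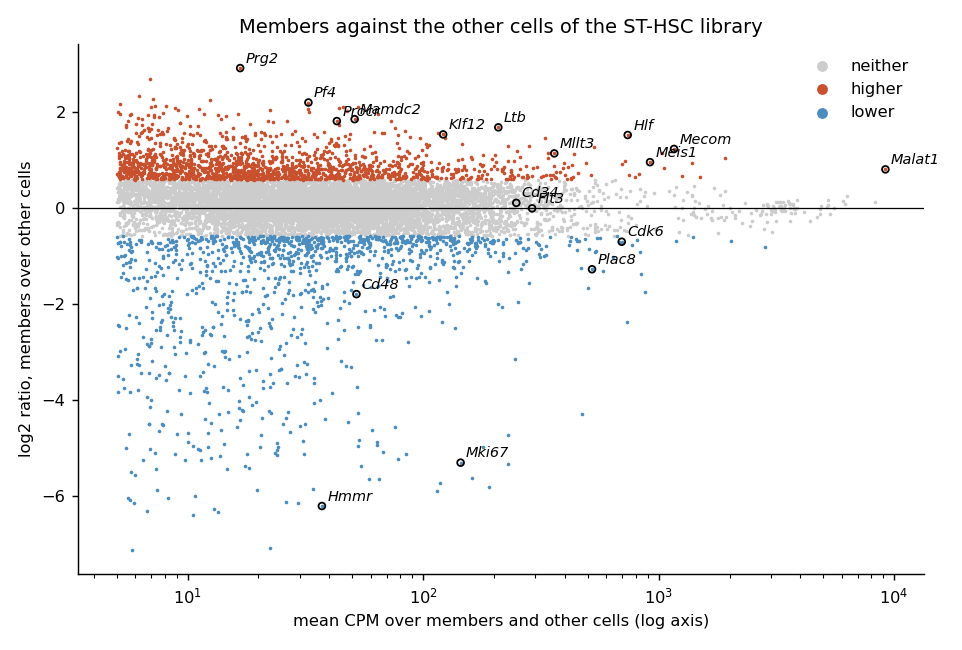
Log2 ratio of the members over the other ST-HSC cells (y axis) against mean CPM on a log axis (x axis), 1 point per measured gene, with 1477 genes called higher and 1196 lower. The lower side reaches further from 0 and holds cycle genes such as Hmmr and Mki67, which the rule selects against.

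Promoters were read to show what the genes that moved together carry, with sequences from RefSeq on GRCm38.p6 running from 250 bases before to 50 after the start. Of the 1477 higher genes 1124 matched, and of the 1196 lower genes 953. Motifs were searched on both strands, 7 in all, among them the CHR element (TTTGAA) and CCAAT. The CHR element and the CCAAT box are known from promoters of late cycle genes. The CHR letters stood in 21.0% of promoters of lower genes, in 11.5% of those of higher genes and in 12.2% of all measured genes. CCAAT stood in 46.9%, 35.6% and 37.9%. The E2F letters (TTTCCCGC or TTTGGCGC, both strands) stood in 7.26%, 1.14% and 3.14%. The ETS letters (CCGGAAGT) stood in 9.29%, 3.49% and 8.84%, those of GATA factors (AGATAA) in 7.17%, 7.65% and 6.49%, and those of RUNX factors (TGTGGT) in 13.98%, 13.89% and 12.6%. Letters of PAR bZIP factors, the class of Hlf (TTACGTAA, TTACATAA or TTATGTAA), stood in 0.885%, 0.940% and 0.700%. A pair of promoters chosen after their matches were seen is given as an example, with the CCAAT and CHR letters on either strand in capitals. Hmmr, a mitotic spindle protein at 0.995 CPM in the members and 73.4 in the other cells, is shown at chr11:40733388-40733687, minus strand, and holds 6 matches. Mllt3, among the higher genes, has 2 listed starts, and the upstream one is shown at chr4:88033358-88033657, minus strand, and holds 1 match, while the other holds 2. Not every lower gene had matches: Birc5, a mitotic survivin at 2.57 and 128 CPM, had 0. A match is only a description of these letters.

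Hmmr: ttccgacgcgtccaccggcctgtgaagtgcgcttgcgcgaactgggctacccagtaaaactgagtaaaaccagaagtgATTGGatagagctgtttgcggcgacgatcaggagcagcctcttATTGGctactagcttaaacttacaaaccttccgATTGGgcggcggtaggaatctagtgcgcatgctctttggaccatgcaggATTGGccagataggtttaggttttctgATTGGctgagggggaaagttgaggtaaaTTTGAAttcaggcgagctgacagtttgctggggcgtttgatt

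Mllt3: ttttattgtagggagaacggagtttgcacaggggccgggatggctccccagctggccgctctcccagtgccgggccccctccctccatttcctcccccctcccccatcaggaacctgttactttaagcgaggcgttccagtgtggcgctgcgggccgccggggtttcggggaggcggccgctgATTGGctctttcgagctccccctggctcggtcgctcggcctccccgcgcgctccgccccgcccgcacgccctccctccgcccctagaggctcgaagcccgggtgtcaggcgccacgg

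Among the cells that met every limit but that on Hlf plus Mecom, its level was graded, and other genes were graded with it. Cells were placed in 7 bins, 3 of them below the limit of 15 and 4 among the members. Over the members, from the bin at 15 to under 20 (301 cells) to the bin at 35 or more (240 cells), Mllt3 went from 354 through 435 and 535 to 709 CPM. Mamdc2 went from 51.7 through 67.6 and 87.2 to 125 CPM. Cd48 went the other way, from 35.9 through 24.8 and 17.8 to 12.1 CPM. Plac8, a gene of myeloid and lymphoid progenitors, went from 404 through 357 and 249 to 179 CPM. Cdk6 went from 660 through 595 and 444 to 393 CPM. Each of these genes moved in 1 direction through the 4 bins.

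Of 10573 genes measured between the highest and the lowest bin of the members, 943 were higher (8.92%) and 542 lower (5.13%). The 6 named for the largest rise between them were Bank1, Igf2r, Pde1c, Magi1, Airn and Tox. Bank1, a B cell scaffold protein, was flat until the last bin, at 11.7, 10.9, 15.3 and 44.6 CPM. Airn, the imprinted RNA that runs antisense to Igf2r, went from 37.5 to 96.6 CPM, and Igf2r from 5.67 to 22.5 CPM. The 2 genes overlap on chromosome 17 on opposite strands, and whether the counting used strand is not given in the sources used here, so their reads cannot be told apart. Tox, a thymocyte HMG-box factor, went from 203 to 449.9 CPM. Naaa, Cxcl9 and Irf8, all high in dendritic cells, were among those lower, and Irf8 went from 36.6 to 10.8 CPM. With bins drawn from 1 part of the split UMIs and levels read from the other, Cd48 had a ratio of 0.43 (0.24 to 0.737) between the same bins and Irf8 one of 0.60 (0.32 to 1.08), against 0.337 and 0.296 without the split, so that the interval for Irf8 held 1. In the same split the ratio was 2.59 for Igf2r and 1.69 for Pde1c, against 3.97 and 2.72 without it. Malat1 went from 9723 to 14060 CPM over the bins while median depth went from 9456 to 8698 UMIs. The part of these in the gradient was not tested. Flt3 did not decline with it: it was at 252 CPM in the lowest bin of the members and 346 in the highest.

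**Figure D4:**
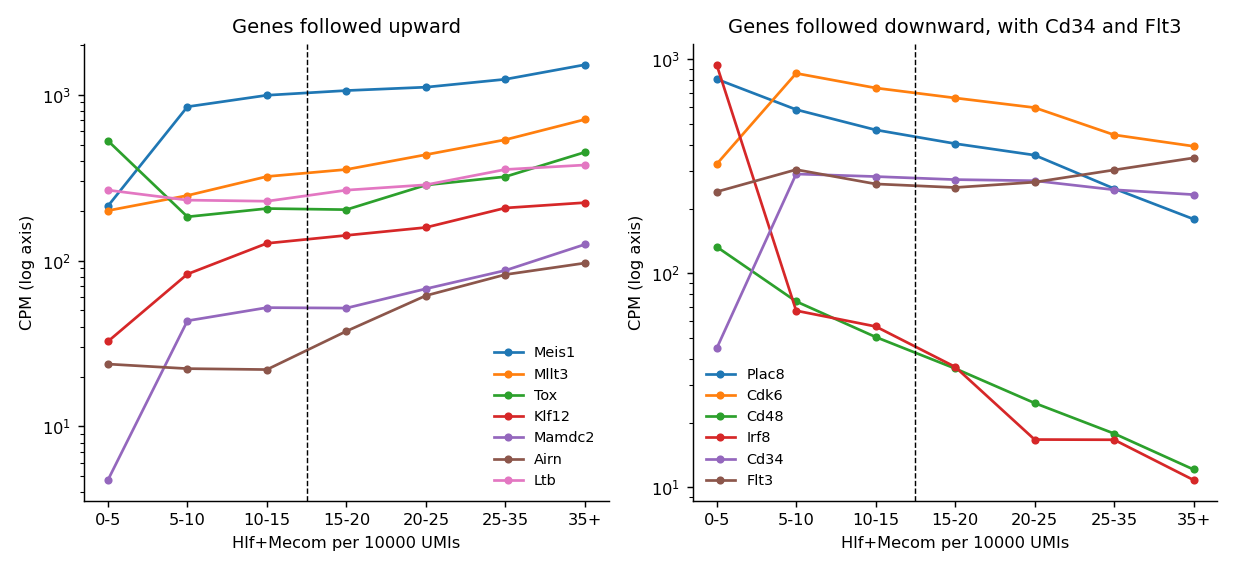
CPM on a log axis (y axis) of 13 genes, in cells that met all limits except Hlf plus Mecom, by bins of Hlf plus Mecom per 10000 UMIs (x axis), with members to the right of the dashed line. Mllt3 and Mamdc2 are higher and Cd48 and Plac8 lower in each further bin of the members, while Cd34 stays between 233 and 274 CPM there.

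The 763 cells below the limit that met every other one served as the closest comparison for Hlf and Mecom themselves, at a like depth of 8985 UMIs. Of 10607 genes, 1020 were higher in the members (9.62%) and 711 lower (6.7%). The lower side was led by genes of mature cells. Plbd1 and Batf3, which are high in dendritic cells, were at 280.1 and 63.2 CPM in the low cells, and Skap1 and Klrd1, of T and NK cells, at 76.8 and 60.8 CPM. Iglc3, an immunoglobulin light chain gene, rested on a single cell: 4381 of the 4413 Iglc3 UMIs of the low cells came from 1 cell. For Igkc, another such gene, 1 low cell held 7262 of 14123 UMIs, and 6861 remained without it. Of 20 dendritic cell genes 16 were lower in the members, and of 14 T and NK cell genes 13.

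These mature cells lay mostly under 5 Hlf plus Mecom per 10000, where 295 of the low cells stood. Against the other 468 low cells, a comparison added after the data were seen, 321 of 10499 genes were higher (3.06%) and 142 lower (1.35%). Of the 26 stem cell transcription factors, 15 were higher against all low cells and 2 against these 468, and the 2 were Mllt3 and Hoxa3. Mllt3 kept a ratio of 1.67 (1.58 to 1.77) there, while Meis1 had 1.28 (1.24 to 1.33). Klf12 and Mamdc2 kept ratios of 1.61 (1.46 to 1.77) and 1.63 (1.41 to 1.89). Ltb was higher by less than the limit in both, at 1.31 (1.24 to 1.39) and 1.39 (1.3 to 1.49). Among the named genes the largest ratios after that of Prg2 were 3.61 for Meg3, an imprinted RNA, and 3.46 (2.86 to 4.23) for Il1rapl2, and Airn had 3.07. On the lower side Cd48 was at 23.3 CPM in the members and 58.3 in these 468 cells, 2.502-fold lower, and Plac8 was 1.67-fold lower. Some mature cell RNA remained in these 468 cells. Of 17 dendritic cell genes 9 were still lower in the members and 0 higher, with Plbd1 5.87-fold lower. Of 4 T and NK cell genes 3 were still lower and 0 higher, with Skap1 12.1-fold lower. Cd48 had a UMI in 8.42% of the members after thinning (6.87 to 10.2), in 29.5% of all low cells and in 0.641% of the LT-HSC cells that met the same rule; without thinning the shares were 16.1%, 40.4% and 0.929%, at median depths of 9035, 8985 and 12731 UMIs.

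The 727 Hlf- and Mecom-high cells that missed a cycling limit differed little from the members in the listed stem cell transcription factors. Of 10633 genes 657 were higher in the members (6.18%) and 896 lower (8.43%). Of 26 stem cell transcription factors 1 was higher, Nkx2-3, and 0 were lower. Among surface genes, Procr was seen in 30.1% of the members and 14.9% of the cycling cells after thinning, and Cd34 in 65.8% and 70.3%. Mecom itself was at 1628 CPM in the members and 1568 in the cycling cells. Genes of inflammation and of the immediate early response made up part of the higher side. Ltb was 2.67-fold higher (2.51 to 2.84), and Wfdc17, a secreted inhibitor of macrophage activation, 3.57-fold (3.32 to 3.85). Ccl3, a chemokine, was 3.27-fold higher (2.81 to 3.82), and Pf4 3.54-fold (2.999 to 4.21). Of 19 NF-kB and cytokine genes 8 were higher and 0 lower, and of 22 immediate early genes 8 and 0, among them Junb at 276 and 122 CPM. Immediate early genes also respond to cell handling, and the part of that was not tested. The cycling cells were deeper, at a median of 15081 UMIs. The lower side held cycle genes selected by the rule, along with E2f1, Ccne2 and Cdk4.

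Hlf- and Mecom-high cells were also left out where they held Dntt, which encodes the polymerase that adds bases at antigen receptor joints. Of 10574 genes 267 were higher in the members than in these 332 Hlf- and Mecom-high cells (2.53%) and 253 lower (2.39%); this comparison was added after the data were seen. Of 20 lymphoid progenitor genes 9 were lower in the members and 0 higher. Flt3 was at 289 CPM in the members and 546 in the Dntt-positive cells, Satb1, a chromatin organiser, at 127 and 292, and Ighm, the mu heavy chain gene, at 26.8 and 104. Tespa1, a T cell signalling protein, was at 75.02 CPM in the members and 133 in the Dntt-positive cells. Il7r, the interleukin 7 receptor, had 20 UMIs in 5 members, 12 of them in 1 cell. Among the higher genes Pf4 ranked next after Prg2, at a ratio of 3.24 (2.57 to 4.14). Low counts of Dntt are missed in shallow cells, and the Dntt-positive cells had a median of 11701 UMIs.

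The same rule chose 323 of the 2722 kept LT-HSC cells, or 11.9% (10.7 to 13.1). Their median of Hlf plus Mecom was 19.5 per 10000, and they were deeper, at 12731 UMIs. Here library and gate are the same thing and cannot be told apart. Of 10709 genes 1108 were higher in the members (10.3%) and 1144 lower (10.7%). Lymphoid progenitor genes were on the higher side. Of 18 lymphoid progenitor genes 11 were higher and 0 lower, with a median log2 ratio of 1.13 against -0.04 for all genes. Flt3, whose protein Flk2 the LT-HSC gate excludes and the stated ST-HSC gate does not name, was 20.7-fold higher (16.2 to 26.9). Satb1 was at 127 and 19.2 CPM, and Ikzf1, the Ikaros factor, at 399 and 172 CPM. Tespa1 had 905 UMIs in the members and 0 in the LT-HSC cells, at least 118-fold higher against a floor of 3 counts over the group. Sema3d, a semaphorin, had 329 and 0 UMIs, at least 43.0-fold higher against the same floor. Cd34 was at 257 and 66.9 CPM and Cd48, on which the stated gates also differ, at 23.3 and 1.27 CPM.

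Megakaryocyte genes were more often lower than higher. Of 16 measured 8 were lower and 2 higher, and of 24 cycle inhibitors and quiescence genes 9 were lower and 4 higher. Vwf, von Willebrand factor, was at 6.55 CPM in the members and 41.2 in the LT-HSC cells, and Pf4 at 53.5 and 159. For Pf4 this order turned when the Hlf plus Mecom limit was raised to 20 in both libraries, to a log2 ratio of 0.29. Slamf1 was at 1.66 and 35.5 CPM, Cdkn1c at 21.4 and 88.3, and Hoxb5, a marker of long-term stem cells, at 1.58 and 9.08. Of 10 Hox A and B genes 5 were lower and 0 higher. Meg3 was at 8.46 and 107 CPM. Cdk6 was higher in the members, at 529.9 and 195 CPM. Of 27 stem cell transcription factors 3 were higher and 7 lower, and of 30 stem cell surface genes 9 were higher and 13 lower. Among those that passed neither limit, Meis1 was at 1211 and 969.8 CPM, Prdm16 at 138 and 113, and Mamdc2 at 80.1 and 105. Of 22 immediate early genes 10 were lower and 2 higher, and of 13 mitochondrially encoded genes 7 were higher and 1 lower. The mitochondrial share was 3.63% in the members and 1.97% in the LT-HSC cells, and genes higher in the members spanned a median of 59.0 kb against 14.1 kb for genes lower. The part of these library differences in the values was not tested.

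**Figure D5:**
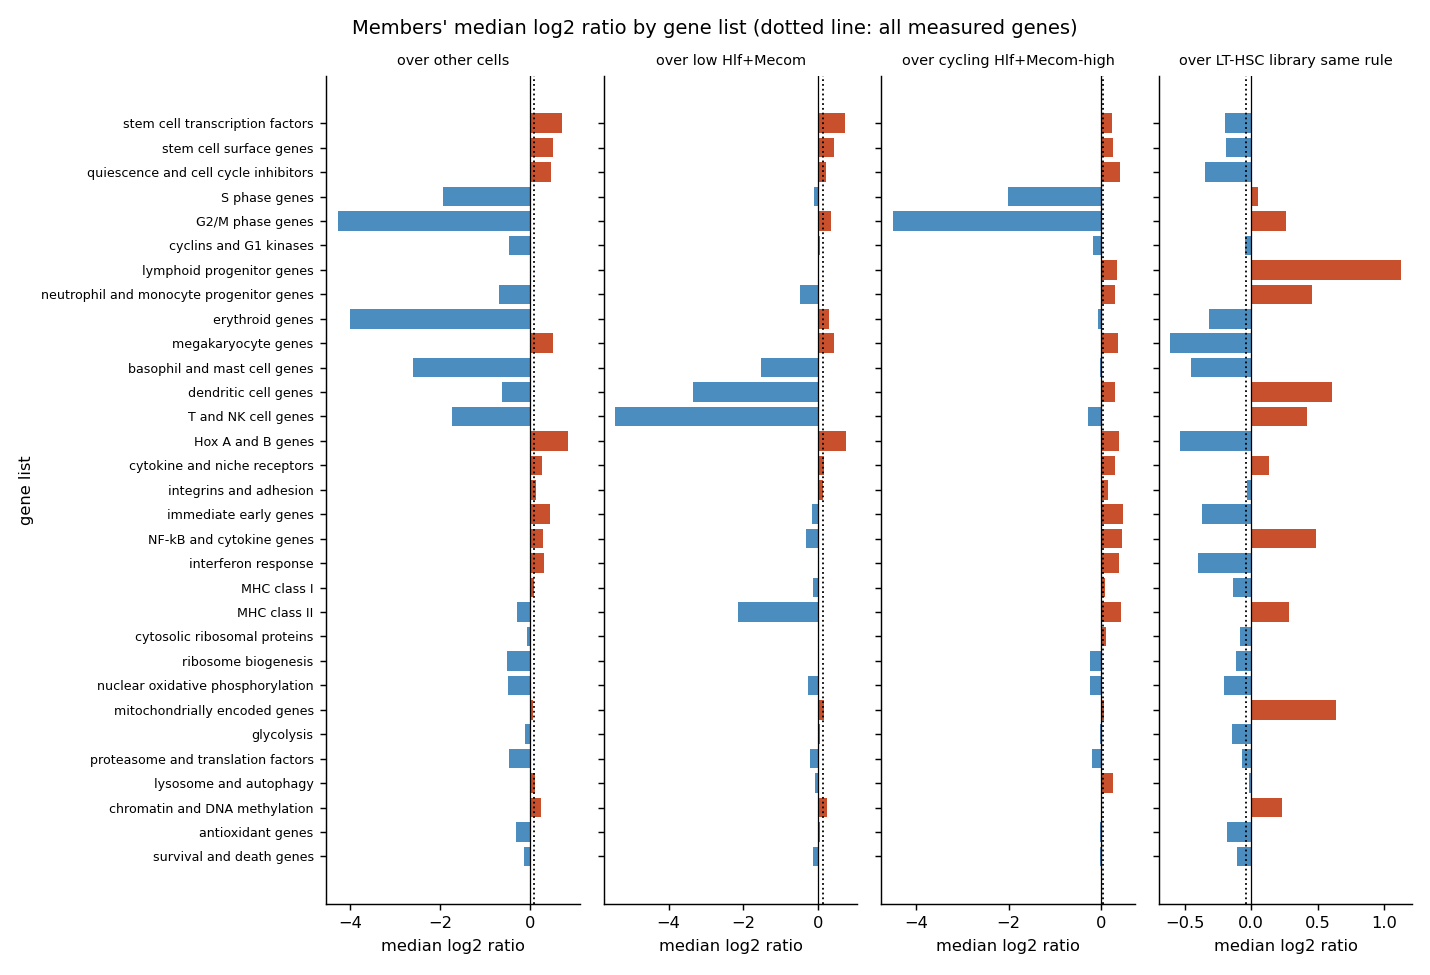
Median log2 ratio (x axis, scaled separately in each panel) of each gene list (y axis) in the members over 4 groups of cells, with the median of all measured genes dotted. In the first panel the G2/M and erythroid lists lie far below 0, at -4.27 and -4.01. Cycle lists lead the third panel, dendritic and T or NK cell lists the second, and lymphoid progenitor genes against megakaryocyte genes the fourth.

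The contrast of these cells with the rest of their own library could be set beside the same contrast in the LT-HSC library, which shares no cells with it. Among the 323 LT-HSC cells against the 2399 others, 3667 of 10560 genes were higher (34.7%) and 1563 lower (14.8%), a comparison added after the data were seen. Of 10160 genes measured in both, 1376 were higher in the members and 3439 in the LT-HSC cells, and 1282 in both, which is 93.2% of the first and 37.3% of the second. Lower genes numbered 1060 and 1488, and 895 were lower in both, 84.4% and 60.1%. Of all 10160 genes, 33.8% were higher and 14.6% lower in the LT-HSC contrast. These counts depend on the scaling. Under TMM 825 genes were higher and 1874 lower in the members, and 1683 and 3392 in the LT-HSC cells. In 3 genes higher and 21 lower in the members, the LT-HSC contrast was called the opposite way. One rule drew both groups, so overlap was partly built in. Il1rapl2 and Plekhg1 were among the leading genes of both, and Il1rapl2 had a ratio of 4.26 in the ST-HSC library and 7.60 in the LT-HSC library.

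The members were not uniform among themselves. After thinning to 5000 UMIs, which left 1128 members, the ratio of variance to mean had a median of 1.07 over 9166 genes and reached 2 or more in 134. It was highest for Prg2, whose UMIs came almost wholly from 1 member. Angpt1, the ligand of the Tie2 receptor, was found in 1110 of these members and ranged from 3 UMIs at the tenth percentile to 25 at the ninetieth. Cd74, the MHC class II invariant chain, had a median of 3 UMIs, with 10 or more in 122 members. Wfdc17 was found in 492 and reached 5 or more in 105. Hbb-bt, a beta globin gene, was found in 207 members at up to 29 UMIs, while Hbb-bs, the other adult beta globin gene, was at 3.9 CPM. The 2 genes are near copies of each other and the split of their reads is uncertain. The interferon-induced chemokines Cxcl10 and Cxcl9 were found in 46 and 28 members. Iigp1, an interferon-induced GTPase, was wider, in 531. Between variable genes the rank correlations across members were weak, the largest between nuclear protein-coding genes being -0.36 for Cdk6 and Ifitm1, an interferon-induced membrane protein. In sparse counts this is a description only.

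Marker genes of other cell types were at uneven levels in the members. Neutrophil-monocyte progenitor markers were at 727 CPM against 2052 in the other cells. Mpo, Elane and Ctsg, which the rule limits, were at 349, 315 and 226 CPM in those other cells. The granule limit alone left out 29 cells, and its part in this difference was not tested. Prtn3, a granule protease the rule did not read, was at 396 CPM in the members and 578 in the other cells. Lymphoid progenitor markers were at 489 CPM against 789.8, with Dntt at 0 UMIs by the rule. The summed T or NK cell markers were at 51.9 CPM against 151 in the other cells, with Cd3e and Gzma at 0 UMIs. Nkg7 alone made 49.7 and 137 CPM of these, and the same sum was 844 CPM in the granule-gene-rich cells. It therefore does not report T or NK cells in particular. Erythroid markers were at 17.5 CPM against 572, of which Car1, limited by the rule, made 11.1 and 447 CPM. The Car1 limit by itself removed no cell, since 0 cells met every other limit and failed that one. Macrophage markers were at 14.2 CPM against 20.8. Dendritic cell markers were at 1181 CPM against 1748, with Siglech at 0 UMIs, and reached 194 per 10000 in 1 member. The megakaryocyte markers, in which Gp1bb was at 0 UMIs, were higher in the members than in the other cells, at 80.8 and 32.3 CPM. Most of that was Pf4, at 53.5 and 11.7 CPM. Gp9 (11.6 and 6.32) and Vwf (6.55 and 3.38) were also higher, while Itga2b (9.04 and 10.6) and Cavin2 (0.166 and 0.231) were not. B cell markers were at 33.4 CPM against 25.8, with Pax5 at 0 UMIs, and Cd79b alone made 32.7 and 24.8 CPM of these. Endothelial or stromal markers were at 147 CPM against 144, with Cdh5 at 0 UMIs, and Pecam1 alone made 145 and 140 CPM. Of the members 23 had a high doublet score. The part of other cells in the values above was not tested beyond leaving out those with high scores.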

How the data were processed

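Droplet single-cell RNA of 2 libraries was analysed, 1 labelled ST-HSC and 1 labelled LT-HSC. The authors deposited UMI counts per gene and barcode with no normalization. Per the submitters' processing notes they came from Cell Ranger 7.2 on mm10, while the matrix header names 7.1.0. No deposited cell annotation was used. Barcodes with at least 1000 genes and under 10% mitochondrial UMIs were kept, which left out 938 of the ST-HSC library. Scrublet (scanpy 1.11.5) called 0 of 6648 ST-HSC cells, so its threshold had not worked. No doublets were removed, and leaving out the 402 highest scores was an alternative. Gene positions came from GENCODE M21, in which 32158 of 32285 gene IDs were found.

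Counts were summed per group of cells and scaled to CPM. A ratio carries an exact interval from the binomial split of both sums, which was tested on simulated data. A gene at 0 was given a floor of 3 counts. The 35 gene lists, the named genes and the members themselves were chosen with earlier results of these data known. Named were the markers, the rule and gate genes, and 13 further stem cell genes. Also named were the 15 highest and 15 lowest ratios over the other cells, and 10 and 10 elsewhere, in order of the bound closer to 1, where either group reached 20 CPM. Up to 4 per list, 10 variable genes and 6 rising and 6 falling over the bins completed them, 319 in all, of which some are not reported here; other list members appear as examples chosen after their values were seen. Unnamed gene models were passed over, 1 of them in each of 3 comparisons. Alternatives changed the limits, the depth, the cells, the scaling (TMM in edgeR 4.0.16) and the CPM minimum.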

Additional observations from a re-analysis of the deposited data

Results flagged for a closer look

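In 4 named genes the members and the LT-HSC cells that met the same rule were called in opposite directions against the other cells of their own library. Pf4 had a log2 ratio of 2.19 in the ST-HSC library, at 53.5 CPM in the members and 11.7 in the other cells, and of -2.21 in the LT-HSC library, at 159 and 736 CPM. Irf8, a dendritic cell and monocyte factor, had -2.15 and 0.64. S100a8, a neutrophil protein, had -2.82 and 1.24, and Gda, guanine deaminase, -1.20 and 2.25. S100a8 and Irf8 were at 7.6 and 8.03 CPM in the LT-HSC cells, which is low, and as a mean per cell Irf8 had -0.22 in the LT-HSC library. The cells set beside them differ between the libraries, each library stands alone, and the difference between them was not tested.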

How the results depend on the processing

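No paired analysis was possible because each gate has 1 library. The rule chose 807 to 1491 cells over its alternatives. Against the other cells the higher genes numbered 825 under TMM, 826 under median of ratios, 3413 with no minimum and 707 at 20 CPM, and the lower 1874, 1874, 2573 and 763. Against the low cells they were 2018 (limit of 10), 649 (median of ratios), 1908 (no minimum), 440 (20 CPM) and 321 (low cells at 5 or more), and the lower 1098 (limit of 10), 1204 (no minimum), 403 (20 CPM) and 142 (low cells at 5 or more). Against the cycling cells they were 408 (cycling limits of 1), 397 (thinned cells), 1505 (no minimum) and 232 (20 CPM), with 581 lower at 20 CPM. Against the LT-HSC cells they were 1762 with no minimum and 662 at 20 CPM, and the lower 1822 and 572. Against the Dntt-positive cells they were 548 (thinned), 544 (split UMIs), 806 (no minimum) and 62 (20 CPM), and the lower 416, 462, 580 and 89. In the LT-HSC contrast they were 1683 (TMM, a log2 shift of -0.50), 1682 (median of ratios), 5916 (no minimum) and 2033 (20 CPM), and the lower 3392, 3393 and 2443 for the first 3.

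Of the named gene values 16562 stayed, 3188 moved and 31 reversed, given here as log2 ratios. Against the other cells, Igkc was at 0.51 and Jchain at 0.79 without high doublet scores, and Prg2 at -4.92 with cycling limits of 1 and -4.40 with thinned cells. Against low cells at 5 or more, Csf2rb2 was at 0.25, H2-Oa at 0.20, Hdc at 0.27, Ier5 at 0.079, Igkc at 0.21, Nupr1 at 0.47, Tnfaip3 at 0.34 and Traf1 at 0.21. Against all low cells E2f1 was at 0.0016 at a limit of 10, Selp at -0.52 at a limit of 20, Socs2 at -0.11 with split UMIs and Prg2 at -5.41 and -4.17 with cycling limits of 1 and thinned cells. Against the cycling cells Cpa3 was at 0.33 at a limit of 20 and Prg2 at -6.59 with cycling limits of 1. Against the LT-HSC cells Clspn was at 0.50, Naaa at -0.63 and Pf4 at 0.29 at a limit of 20, and Slc25a21 at 0.17 with thinned cells. Against the Dntt-positive cells Cenpf was at 0.041 and Plbd1 at 1.36 with thinned cells, and Cxcl9 at 0.13 at a limit of 10 and 0.025 as a mean per cell. In the LT-HSC contrast Ccl5 was at 0.29 at a limit of 10 and 0.68 with thinned cells, Hbb-bt at -0.093 with all barcodes and Irf8 at -0.22 as a mean per cell. The cause of the reversals was not tested beyond Prg2, whose UMIs came from 1 member. Levels of a few UMIs per group limit what can be seen.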
